A study of Homo sapiens with 4 samples.

Results

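Long internal exons were examined in a table of exon skipping from HEK293T cells, a human embryonic kidney line marked 293T in the labels. An internal exon was taken as long when it spanned at least 400 nt between its splice sites and its junctions held a mean of at least 20 reads over the 4 libraries. Where the table listed an exon with several pairs of neighbouring exons, the listing with most reads was used. This gave 1397 long exons in 1230 genes, of 49507 distinct exons in the table. Length and reads chose them, and no inclusion level entered the choice.

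The groups are 2 libraries from cells transfected with an antisense oligonucleotide (ASO) of the gapmer type that targets SNORD89, a C/D box small nucleolar RNA, and 2 libraries from cells marked as treated with none. Gapmers are short modified DNA strands that pair with an RNA and direct its cleavage by RNase H. All 4 samples are 293T cells with polyA RNA, and all carry the same protocol of lipid transfection with 70 nM gapmer, new medium at 24 h and RNA taken at 48 h. Whether the untreated cells received the lipid is therefore not clear from the labels, and no control ASO is named. The labels call the samples biological replicates but do not say that they were separate cultures, so the p-values measure the spread between these samples, which may be technical.

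The table compares a first set of 2 libraries with a second set of 2. Neither its header nor the labels say which set received the ASO, so each direction below is that of the first set against the second. Libraries are named by their order within a set, and these names pair nothing across the sets. Junction reads over the long exons summed to 1087405 and 1123230 for the first set, against 1295475 and 1317617 for the second. The median long exon had 217 and 182 reads in the first set but 135 and 148 in the second, and 5 long exons had none in library 2 of the second set. The abundance of SNORD89 and markers of the cell line are not part of a table of exon skipping and were not checked.

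Most human internal exons are short, and the splicing machinery is thought to recognise them as a unit, by pairing the 3′ splice site at the start of an exon with the 5′ splice site at its end. Long exons stretch the distance over which that pairing has to work. They often hold a large part of a protein in a single block, as in ankyrin G or the nuclear speckle protein SON, and several known ones are used only in some tissues.

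An exon's inclusion level is the share of transcripts, among those read across its junctions, that contain it. It is computed from reads across the junctions into and out of the exon and from reads across the junction that joins its neighbours. Each form is divided by its effective length, which was 298 for inclusion and 149 for skipping in every long exon. The junctions of 4 long exons are shown here as transcript sequence, 15 bases on each side, because their counts carry results described further on. Capitals mark bases of the long exon and lower case marks its neighbours, and the sequences come from GENCODE release 29 transcripts matched by exon spacing. For NASP, a histone chaperone, the exon is chr1:46072993-46074009 on the plus strand of hg19, and for NDUFV3, an accessory subunit of mitochondrial complex I, it is chr21:44323292-44324386 on the plus strand. These are the deepest long coding exons with intermediate inclusion.
NASP into the long exon: atgataacatagatgAGGAAGCAAGGGAAG
NASP out of the long exon: TGAAAGAGGGTGAAGaaactgaaggctcag
NASP skipping junction: atgataacatagatgaaactgaaggctcag
NDUFV3 into the long exon: aaagtccaccaaaaaATGTAGTGGAACCAA
NDUFV3 out of the long exon: GAGGCGGCACACAGGagccagccccagtgc
NDUFV3 skipping junction: aaagtccaccaaaaaagccagccccagtgc
The other pair was called between the sets in opposite directions. PALLD encodes palladin, an actin-associated scaffold, and its exon is chr4:169798874-169799545 on the plus strand. ANKMY1 encodes a protein with ankyrin repeats and a MYND-type zinc finger, and its exon is chr2:241468454-241468926 on the minus strand.
PALLD into the long exon: gcccggagagccgagGGACCCTCTGAAGCT
PALLD out of the long exon: GGGTGTCACCCCCGCaggatttccaaagaa
PALLD skipping junction: gcccggagagccgagaggatttccaaagaa
ANKMY1 into the long exon: acacggcttttccagGGGCTATACAAAGCG
ANKMY1 out of the long exon: AACTTACAAGTTCAGactcactgccacaac
ANKMY1 skipping junction: acacggcttttccagactcactgccacaac

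The long exons ranged from 400 to 7812 nt, with a median of 655 nt. Their lengths fell into 378 exons of 400 to under 500 nt, 658 of 500 to under 1000 nt and 361 of 1000 nt or more. By comparison, the 41706 exons under 400 nt with enough reads had a median of 116 nt. Of the 1230 genes, 1083 had a single long exon and 147 had more, up to 4 in ZNF638. Overlap was frequent, with 159 long exons sharing bases with another long exon of the set, and such exons can share reads.

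Where an annotation could be matched, long exons differed from shorter ones in their place in the gene. The 1365 matched exons comprised 577 (42.3%) that were wholly coding, 409 (30%) that were partly coding, that is, holding an end of the coding sequence, and 379 (27.8%) that were non-coding. Among shorter exons the corresponding shares were 76.2%, 10.5% and 13.4%. Long exons ended in G in 85.7% of cases and in AG in 61.1%, against 80% and 55.1% of shorter exons, and AG is the usual exonic end at a 5′ splice site. Their median GC content was 52.7%, against 50.5%, and it was lower in the longer classes, at 54.7%, 53.2% and 49.8% from the shortest class to the longest. The introns on their 5′ and 3′ sides had medians of 2465 and 2160 nt, against 1886 and 1777 nt around shorter exons.

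Many of the long exons shared a splice site with a shorter annotated exon of the same gene: 1008 of the 1365 (73.8%) did, against 29.5% of shorter exons. In 488 (35.8%) both outer sites were also used by shorter exons, and 366 (26.8%) contained an annotated intron, against 0.725% of the shorter exons. The non-coding class was made up largely of these, since 68.1% of its exons contained an annotated intron, against 7.97% of the coding ones. EWSR1, which encodes an RNA-binding protein, has a 2994 nt exon of this kind with inclusion levels of 0.997 and 0.992 in the first set, against 0.996 and 0.996 in the second. Such values describe the use of the outer splice sites, because a read across them cannot tell the unbroken exon from transcripts in which its inner intron is removed.

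Long exons were mostly included. Their median inclusion level was 0.982, against 0.983 for exons under 400 nt, and 968 of them (69.3%) had a level of at least 0.95, against 65.5%. Near-complete skipping was less frequent among them, at 72 exons (5.15%) with a level under 0.05 against 11.4% of shorter exons. The intermediate levels from 0.5 to 0.95 held a larger share of long exons, with 5.87% from 0.5 to 0.8 and 14.7% from 0.8 to 0.95, against 4.39% and 11.7%. Length within the set made little difference to the median, which was 0.984, 0.983 and 0.978 in the 3 length classes. Reads of shorter exons that share a splice site can also count as inclusion here. Among matched exons that share none with a shorter annotated exon, the median was 0.976 for long exons and 0.981 for those under 400 nt. These shares and medians are descriptions, and no test of them was made.

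**Figure D1:**
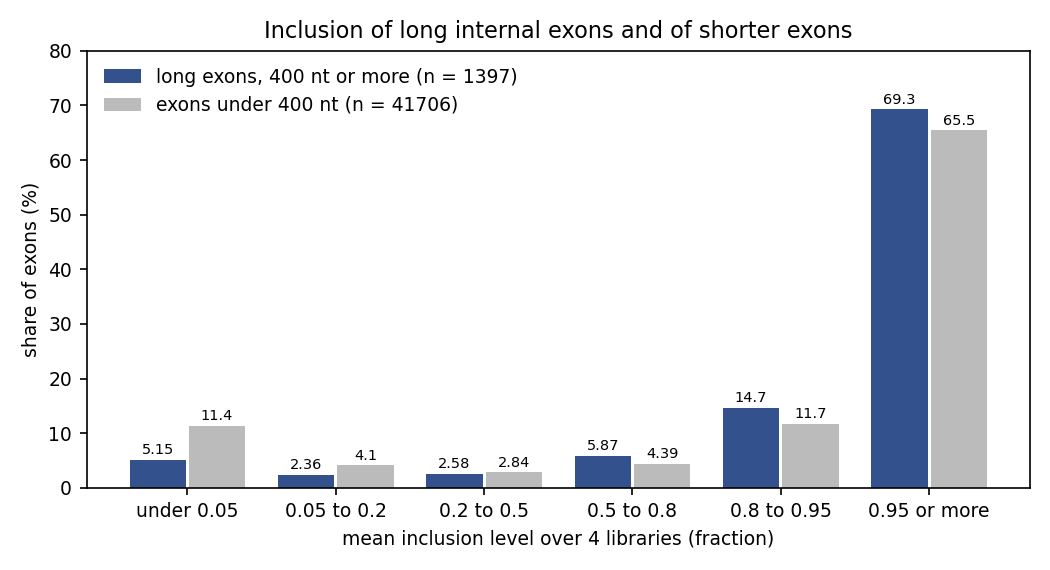
Share of exons (%) in each class of mean inclusion level over the 4 libraries, for 1397 long exons (blue) and 41706 exons under 400 nt (grey); the number above each bar is its share. Long exons have the smaller share under 0.05 (5.15% against 11.4%) and the larger share from 0.8 to 0.95 (14.7% against 11.7%).

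Coding state and annotation separated the long exons more than length did. Wholly coding long exons had a median inclusion level of 0.987 and only 1.56% of them lay under 0.05, against 7.82% of partly coding and 7.39% of non-coding ones. The 469 long exons whose skipping junction is itself annotated had a median of 0.888, and the others a median of 0.991. Among shorter exons these medians lay further apart, at 0.729 and 0.993. Inclusion and reading frame went together in the coding class. A length that is a multiple of 3 keeps the frame when the exon is skipped, and this held for 39.5% of the 446 coding long exons with a level of at least 0.95, 47.7% of 111 between 0.5 and 0.95, 72.7% of 11 between 0.05 and 0.5 and all 9 under 0.05. The shares among shorter coding exons were 40.4%, 47.9%, 68.3% and 59.9%.

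The 9 coding long exons under 0.05 were picked out after their values were seen. They lay in ANK3, NACA, MPRIP, MAP4, RTN3 (a pair sharing their 3′ end and their skipping reads), WNK1, MAPT and CCDC50, and in each the skipping junction is annotated. ANK3 encodes ankyrin G and MAPT encodes tau, whose giant exons are known from neurons. MAP4 is a microtubule protein related to tau, RTN3 a reticulon of the endoplasmic reticulum, MPRIP a partner of myosin phosphatase and WNK1 a kinase that controls ion transport. The longest of the 1397 exons was that of ANK3, at 7812 nt, chr10:61828395-61836206. In the first set 1 inclusion read stood against 61 skipping reads in library 1 and 0 against 52 in library 2, and in the second set 0 against 9 and 0 against 32. The exon was therefore almost wholly skipped in each library, with an upper 95% Wilson limit for its inclusion of 0.0449, 0.0356, 0.176 and 0.0566 in turn. These intervals cover counting error only, since reads amplified by PCR are not independent molecules. NACA, whose 5589 nt exon marks the muscle form of the nascent polypeptide-associated complex subunit alpha, had 14385, 13428, 16637 and 19304 skipping reads in the 4 libraries, and its only inclusion reads were 2 in library 1 of the second set.

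MAP4 shows that long exons of the same gene need not share this pattern. Its 3384 nt exon had levels of 0.0211, 0.0328, 0.0077 and 0.0416 in the order of first set library 1, first set library 2, second set library 1 and second set library 2. Its 1224 nt exon, at chr3:47957441-47958664, had 1, 1, 0.994 and 1. Of the 5 longest exons, those of ANK3 and NACA were skipped and the other 3 were included. ANKRD11, a chromatin regulator, had a 6578 nt exon at 0.991, 1, 1 and 1. That exon contains an annotated intron, so these levels describe the use of its outer splice sites. SON, a splicing cofactor of nuclear speckles, had a 5916 nt exon at 0.997, 1, 1 and 1. The 5735 nt partly coding exon of DNAJB6, an HSP40 co-chaperone, lay between, at 0.922, 0.892, 0.908 and 0.928.

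Among exons with at least 50 reads, the lowest levels besides NACA were those of 4 exons with many junction reads. Ranking on the lowest level favours deep exons, because any inclusion read among few reads gives a higher level. A 726 nt exon of the ribosomal protein gene RPS19 had a highest level of 5.18e-05 in any library, with a mean of 39576.5 reads. FAF1, AIMP2 and NHP2L1 had highest levels of 0.000898, 0.00196 and 0.00126. NHP2L1, also called SNU13, encodes the protein that binds the core of C/D box small nucleolar RNAs and of U4 snRNA. The long forms of these 4 exons are supported by few junction reads among many that skip them.

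**Figure D2:**
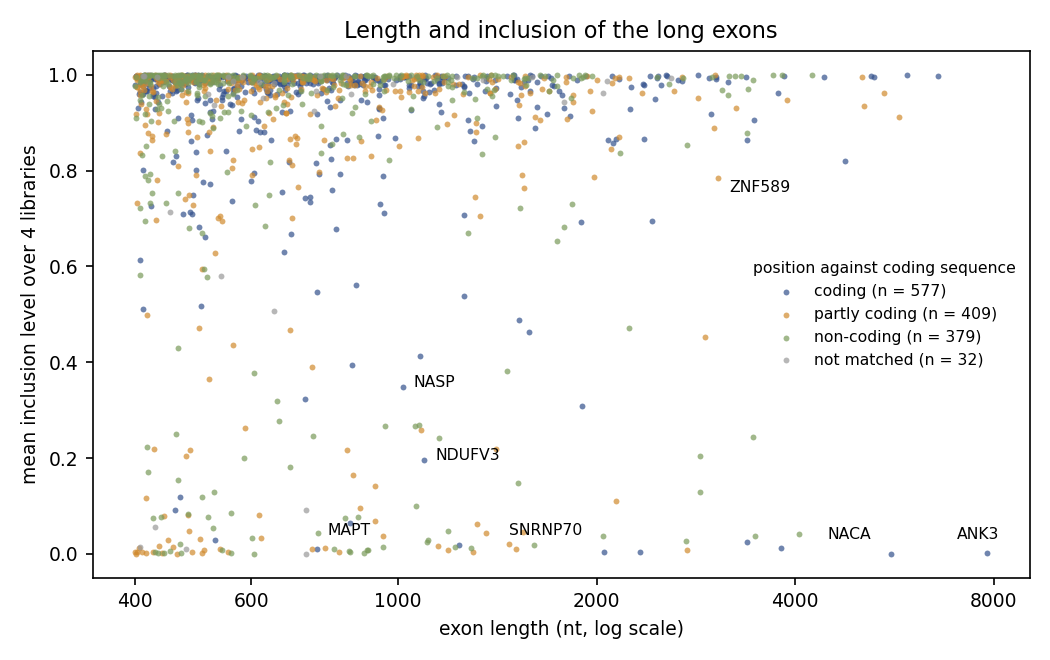
Mean inclusion level over 4 libraries (fraction) against exon length (nt, log scale) for the 1397 long exons, coloured by position against the coding sequence, with some exons named. Most exons lie near 1 at every length, and the longest exon, in ANK3 at 7812 nt, lies near 0.

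Of the long exons with a mean level from 0.05 to 0.95, 86 had a mean of at least 200 reads. The gap between their highest and lowest library had a median of 0.0821, and it was over 0.1 in 33 of them (38.4%, beside 28.7% of tested events of that depth and level). The 5 with most reads differed less between libraries. In NASP, where the 1017 nt exon separates the long form named for testis from the somatic form, inclusion was 0.352 and 0.358 in the first set, against 0.344 and 0.339 in the second, with a mean of 1903 reads. The 95% Wilson intervals of these 4 values overlapped, the widest spanning 0.338 to 0.38. NDUFV3, whose 1095 nt exon makes the long form of this complex I subunit, had 0.204 and 0.198 against 0.187 and 0.193, with a mean of 1398 reads. Both exons were a little higher in each first-set library than in either second-set library, by 0.014 and 0.011 on average, and neither difference passed a test.

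The other 3 of these exons lie in RBM4, RPS9 and PTGES3. RBM4, an RNA-binding regulator of splicing, had levels of 0.815 and 0.821 in the first set, against 0.788 and 0.819 in the second for a 691 nt exon. Ribosomal protein gene RPS9 had 0.925 and 0.926 against 0.915 and 0.929 (449 nt), and PTGES3, which encodes the HSP90 co-chaperone p23, 0.918 and 0.914 against 0.924 and 0.931 (635 nt). The RBM4 and RPS9 exons contain an annotated intron, so their levels describe the use of their outer splice sites. In the authors' deposited table all 5 of these exons have a false discovery rate (FDR) of 1. Exons with fewer reads could be less even, as shown by CAMLG and PPT2, picked out after their values were seen. CAMLG, which takes part in inserting tail-anchored proteins into the endoplasmic reticulum, had a 461 nt exon at 0.872 and 0.874 against 0.821 and 0.758, with a mean of 799 reads. PPT2, a lysosomal thioesterase, had a 406 nt exon at 0.558 and 0.56 against 0.431 and 0.776, so its second-set libraries lay on either side of the first set.

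SNRNP70 had the smallest quasi-binomial p of the long exons. It encodes the U1-70K protein of the U1 particle that recognises 5′ splice sites, and its 1474 nt exon, chr19:49605371-49606844, was rarely included. First-set inclusion was 0.0291 (95% Wilson interval 0.0256 to 0.0332) and 0.0228 (0.0195 to 0.0266), against 0.0156 (0.0132 to 0.0183) and 0.0113 (0.00946 to 0.0135) in the second set. The sets did not overlap, but the difference of 0.013 lay under 0.1, the smallest used for a call here. The authors' deposited table gives it an FDR of 6.02e-05, and the quasi-binomial model described next gave p = 4.46e-05 and an adjusted p of 0.487 over all 54503 tested events, Benjamini-Hochberg. With any 1 library left out the difference lay between 0.009 and 0.016.

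**Figure D3:**
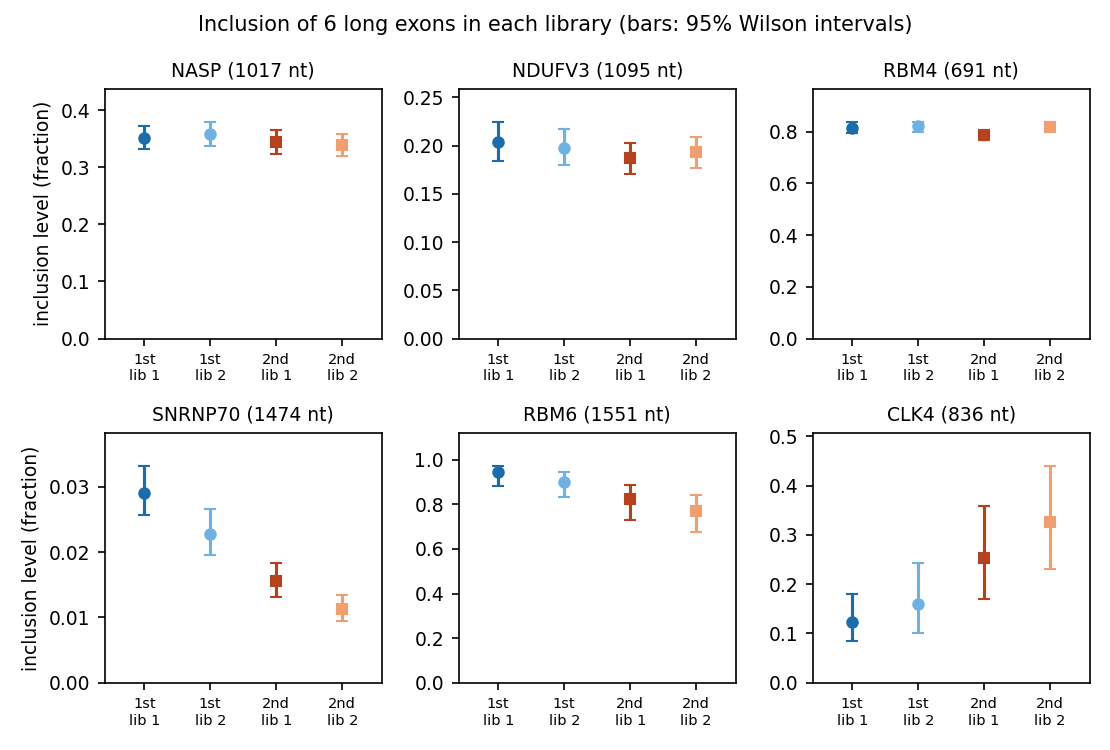
Inclusion level (fraction) of 6 long exons in each library, first set in blue circles and second set in red and orange squares, with bars for 95% Wilson intervals, which cover counting error only; each panel has its own axis from 0. NASP, NDUFV3 and RBM4 lie close together in all 4 libraries, while SNRNP70 and RBM6 are higher and CLK4 is lower in both libraries of the first set.

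The comparison between the sets asks which exons are spliced differently when SNORD89 is targeted. In the authors' deposited table, 47 long exons in 47 genes had an FDR under 0.05 and a difference in inclusion level of at least 0.1, which is 3.36% of the long exons beside 2.71% of all tested events. They were higher in the first set in 27 cases (1.93%, beside 1.34% of tested events) and lower in 20 (1.43%, beside 1.37%). The sets did not overlap in 36 of the 47 (2.58%, beside 2.14%). These shares are near those of all events and are not read as a property of long exons. Shorter exons, taken once each, were called in 2.47% of cases.

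None of the 47 had an adjusted p under 0.05 in the further tests fitted here, which take the scatter among libraries as their error. In the quasi-binomial model with dispersions moderated by limma's squeezeVar, 0 of the 1397 long exons had an adjusted p under 0.05, beside 0.00183% of tested events, and 45 (3.22%) had an unadjusted p under 0.05, beside 2.96% of tested events. The limma test, on log2 inclusion-to-skipping ratios, also gave 0 adjusted calls, with 92 long exons (6.59%, beside 4.87%) at an unadjusted p under 0.05. Of the 47 deposited calls, 16 and 22 reached an unadjusted p under 0.05 in the respective tests. The calls named below therefore rest on the deposited FDR.

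Called long exons were shallow. Their median was 55.5 reads per library, against 180 for those not called, and the range was 20.2 to 396. By depth, 20 of 225 long exons with 20 to under 50 reads were called (8.89%, beside 9.09% of tested events of that depth), 26 of 540 with 50 to under 200 (4.81%, beside 3.3%), 1 of 486 with 200 to under 1000 (0.206%, beside 0.354%) and 0 of 146 with 1000 or more. The largest difference among those 146 was 0.0556. An FDR under 0.05 at any difference, in the authors' deposited table, was found for 98 long exons (7.02%, beside 5.72% of tested events). Of the 51 among them with a difference under 0.1, 33 were higher in the first set (64.7%, beside 56.4% of the 1638 tested events of this kind) and 18 lower, with a median of 232 reads and a median difference of 0.0714 in size.

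**Figure D4:**
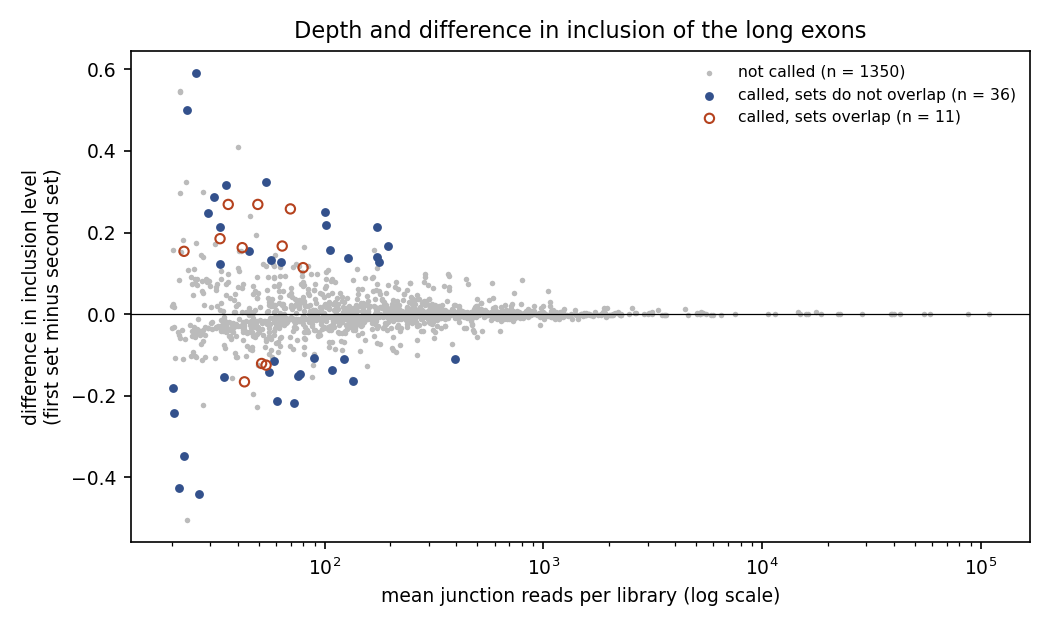
Difference in inclusion level (first set minus second set) of each long exon against its mean junction reads per library (log scale), with exons not called in grey, called exons whose sets do not overlap as filled points (n = 36) and called exons whose sets overlap as open circles (n = 11). The differences narrow with depth, and the called exons lie between 20.2 and 396 reads.

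Library 2 of the second set stood apart in these calls. It held the lowest level in 21 of the 47 called exons. All 21 were higher in the first set, a direction that a low second-set level itself favours. In 4 of them, STOX1, CDK18, ZYG11B and TMEM173, chosen after their values were seen, it was the only library below 1. Without that library 13 of the 27 higher calls and 18 of the 20 lower calls stayed at 0.1 or more with their sign, 3 of the higher ones reversed and 4 went to 0, whereas leaving out any other library kept 43 or 44 of the 47. Among long exons with a mean level from 0.05 to 0.95, 8.12% differed by over 0.2 between the libraries of the first set and 26% between those of the second, beside 7.87% and 22.3% of tested events in that range.

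Zinc finger genes, grouped by symbol and many of them encoding DNA-binding factors, had 51 long exons in 41 genes. Their median inclusion level was 0.961, and 30 (58.8%) had a level of at least 0.95. All 4 calls in the group were higher in the first set, while the median difference over the 51 was -0.0069. Events of these genes of any exon length were called in 7.68% of cases, beside 2.71% over all genes. The group's long exons had a median of 46.2 reads, and 9.09% of all tested events with 20 to under 50 reads were called. Whether depth has a part in the group's share was not tested. ZNF589, a KRAB zinc finger gene, had the deepest of the 4, a 3055 nt partly coding exon at chr3:48309405-48312459. Inclusion was 0.862 (100 inclusion and 8 skipping reads) and 0.958 (137 and 3) in the first set, against 0.674 (58 and 14) and 0.644 (65 and 18) in the second. The difference was 0.251, with an FDR in the authors' deposited table of 0.000274 and a quasi-binomial p of 0.0103, and it lay between 0.203 and 0.299 with any 1 library left out.

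ZKSCAN3, a repressor of autophagy genes, had levels of 0.867 and 1 against 0.667 and 0.704 for a 464 nt exon. ZNF530 included its 2142 nt exon in few transcripts, at 0.163 and 0.18 in the first set, against 0.0649 and 0.0333 in the second. In both genes the sets were apart, with 23 to 41 reads per library. ZBTB48, which encodes the telomere-binding protein TZAP, had 1 and 0.913 against 0.871 and 0.407, so its difference of 0.317 rested on library 2 of the second set and was 0.086 without it and 0.549 without library 1. The deepest zinc finger exon, of 955 nt in ZNF638, had 1 and 0.996 against 0.997 and 0.988.

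RNA processing genes held 43 long exons, of which 1 was called higher and 2 lower in the first set; of all tested events of these genes 2.28% were called, beside 2.71% over all genes. RBM6, an RNA-binding splicing regulator, had a 1551 nt exon at chr3:50004631-50006181 with levels of 0.943 and 0.901 in the first set, against 0.822 and 0.769 in the second. Its skipping reads numbered 6 and 11 against 14 and 20, with inclusion reads from 129 to 201. The difference of 0.127 had an FDR in the authors' deposited table of 0.0103 and a quasi-binomial p of 0.0558, and it stayed at or above 0.101 with any library left out. A 1279 nt form of the same exon with another start, which counts the same skipping reads, had 0.964 and 0.944 against 0.871 and 0.841.

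CLK4, a kinase that phosphorylates SR splicing factors, went the other way. Its 836 nt exon, chr5:178046839-178047674, had levels of 0.124 and 0.16 in the first set, against 0.253 and 0.327 in the second, a difference of -0.148. The authors' deposited table gives an FDR of 0.0156, and the quasi-binomial p was 0.0511. NKTR, a cyclophilin with a serine- and arginine-rich part, had 0.792 and 0.724 against 1 and 1 for a 3376 nt exon that contains an annotated intron, but only 2 reads covered it in library 2 of the second set. The deepest exon of the group, of 562 nt in TAF15, an RNA-binding protein related to EWSR1, was at 0.989 and 0.985 against 0.992 and 0.978.

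Chromatin and transcription regulators held 51 long exons, 43 of them (84.3%) at a level of at least 0.95. Only BRD9 and PHF3 were called, both lower in the first set, and events of these genes were called in 2.96% of cases, beside 2.71% over all genes. BRD9, a bromodomain subunit of a SWI/SNF complex, had a 513 nt non-coding exon at 0.357 and 0.371 in the first set, against 0.583 and 1 in the second, with 19 to 24 reads per library. That exon contains an annotated intron, so its levels describe the use of its outer splice sites. Its difference of -0.427 was -0.219 without library 2 of the second set. PHF3, which binds the tail of RNA polymerase II, had a 1783 nt exon at 0.929 and 0.848 against 1 and 1, a difference of -0.111 that was -0.071 without library 2 of the first set. DNMT1 and BRD2, the group's deepest, lay between 0.997 and 1 in every library.

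DNA repair genes had 19 long exons and a single call, with 2.58% of their tested events called, beside 2.71% over all genes. C4orf21, now named ZGRF1, encodes a helicase of DNA repair, and its 2251 nt coding exon had 0.857 and 0.859 in the first set, against 1 and 1 in the second. Skipping reads numbered 6 and 5 against 0 and 0, with inclusion reads of 72, 61, 36 and 42, and the 95% Wilson intervals of the second set began at 0.824 and 0.845, below the levels of the first. The difference of -0.142 was -0.0831 with reads summed over every listing of the exon, under the 0.1 used for a call.

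Long exons of the genes listed under mitosis (19), centrosome (21) and nuclear pore (6) held no call. The centrosome list does not hold CEP44 and WDR90, genes of centriolar proteins whose calls are described below. Tested events of the listed genes were called in 0.768%, 3.44% and 0.623% of cases, beside 2.71% over all genes. The median inclusion levels of their long exons were 0.992, 0.984 and 0.988, with medians of 324, 75.2 and 419 reads. TACC3, a spindle protein, had a 1080 nt exon at 0.984 and 0.987 in the first set, against 0.989 and 0.993 in the second. NIN, the centrosomal protein ninein, was the least even of those named here, with 0.953 and 0.821 against 0.826 and 0.858 for a 2139 nt exon.

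Cytoskeleton and scaffold genes had 20 long exons and 1 call, in PALLD, and 3.41% of their tested events were called, beside 2.71% over all genes. Its 672 nt coding exon, whose junctions are shown above, had levels of 0.732 and 0.738 in the first set, against 0.443 and 0.602 in the second. The reads were 235 inclusion and 43 skipping, and 152 and 27, against 35 and 22, and 133 and 44. The 95% Wilson intervals of the first-set libraries overlap, while the libraries of the second set lie further from each other than library 2 lies from the first set. The difference was 0.213, with an FDR in the authors' deposited table of 0.0353 and a quasi-binomial p of 0.0447, and it was 0.133 without library 1 of the second set. FLNA, which encodes filamin A and was the deepest of the group, had 0.998 and 0.996 against 0.995 and 1.

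Of the 47 calls, 36 lay outside these gene groups. Among those higher in the first set, CEP44, a centriolar protein, had the largest difference, at 0.591 for a 1331 nt exon. All 41 and 42 reads of the first set supported inclusion, but the second set held 10 reads in each library, of which 9 and 0 supported inclusion. The difference was 0.182 without library 2 of the second set and 1 without library 1. TRIM6, a ubiquitin ligase, followed with levels of 1 and 1 (37 and 36 reads) against 0.5 and 0.5 (9 and 12 reads), for a 490 nt exon that contains an annotated intron. JAKMIP1, a microtubule-binding protein, had 0.971 and 0.957 against 0.907 and 0.372, so its difference of 0.325 was 0.057 without library 2 of the second set and 0.592 without library 1.

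PCNXL4, of the pecanex family of membrane proteins, had a 742 nt exon at 0.458 and 0.543 in the first set, against 0.308 and 0.255 in the second, with 207, 135, 34 and 32 reads. USP35, a deubiquitinase, had 0.929 and 1 against 0.619 and 0.737 for a 683 nt exon, and TMEM79, a membrane protein, had 1 and 0.895 against 0.87 and 0.6 for a 459 nt exon. The difference of 0.213 in TMEM79 was 0.078 without library 2 of the second set and 0.347 without library 1. In PCNXL4 both sets stood clear of each other by more than the gap within either, and its quasi-binomial p was 0.0916.

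Lower calls often paired a full second set with a partly skipping first set. In 10 called exons both second-set libraries were at 1, and in 8 both first-set libraries were. PRR14L had levels of 0.793 and 0.773 (156 and 78 reads) against 1 and 1 (15 and 42 reads) for a 525 nt exon, and SIX4, a homeobox transcription factor, 0.832 and 0.865 (185 and 83 reads) against 1 and 1 (25 and 10 reads) for a 686 nt exon. DUSP10, a phosphatase of stress-activated kinases, had 0.818 and 0.487 against 1 and 1, with 13 to 30 reads, and its difference of -0.347 was -0.182 without library 2 of the first set. In these genes the set at 1 was also the one with fewer reads, and whether depth has a part in the difference was not tested.

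ANKMY1 had the largest lower difference, at -0.44. Its 473 nt coding exon, shown above by its junctions, had levels of 0.556 (30 inclusion and 12 skipping reads) and 0.422 (19 and 13) in the first set, against 0.857 (24 and 2) and 1 (7 and 0) in the second. With any library left out the difference ran from -0.511 to -0.368. Its direction could not change, because the sets do not overlap. The FDR in the authors' deposited table was 0.00475 and the quasi-binomial p was 0.0765. WDR90, a centriolar protein, had 0.704 and 0.822 against 0.949 and 1 for a 1402 nt exon that contains an annotated intron.

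SLC9A5, a sodium-proton exchanger, had 0.769 and 0.867 against 1 and 1 with 10 to 28 reads, for a 538 nt exon that also contains an annotated intron. SOCS7, a suppressor of cytokine signalling, included its 726 nt exon rarely, at 0.0291 and 0 against 0.0714 and 0.267, and the difference of -0.154 was -0.057 without library 2 of the second set and -0.252 without library 1. The deepest call of all, picked out after its values were seen, was a 561 nt exon of PRKRIP1, a spliceosome-associated protein, with 348 to 453 reads per library. Its levels were 0.742 and 0.758 in the first set, against 0.898 and 0.824 in the second, with an FDR in the authors' deposited table of 0.00823 and a quasi-binomial p of 0.0253, and the difference of -0.111 was -0.075 without library 1 of the second set and -0.034 with reads summed over every listing of the exon.

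**Figure D5:**
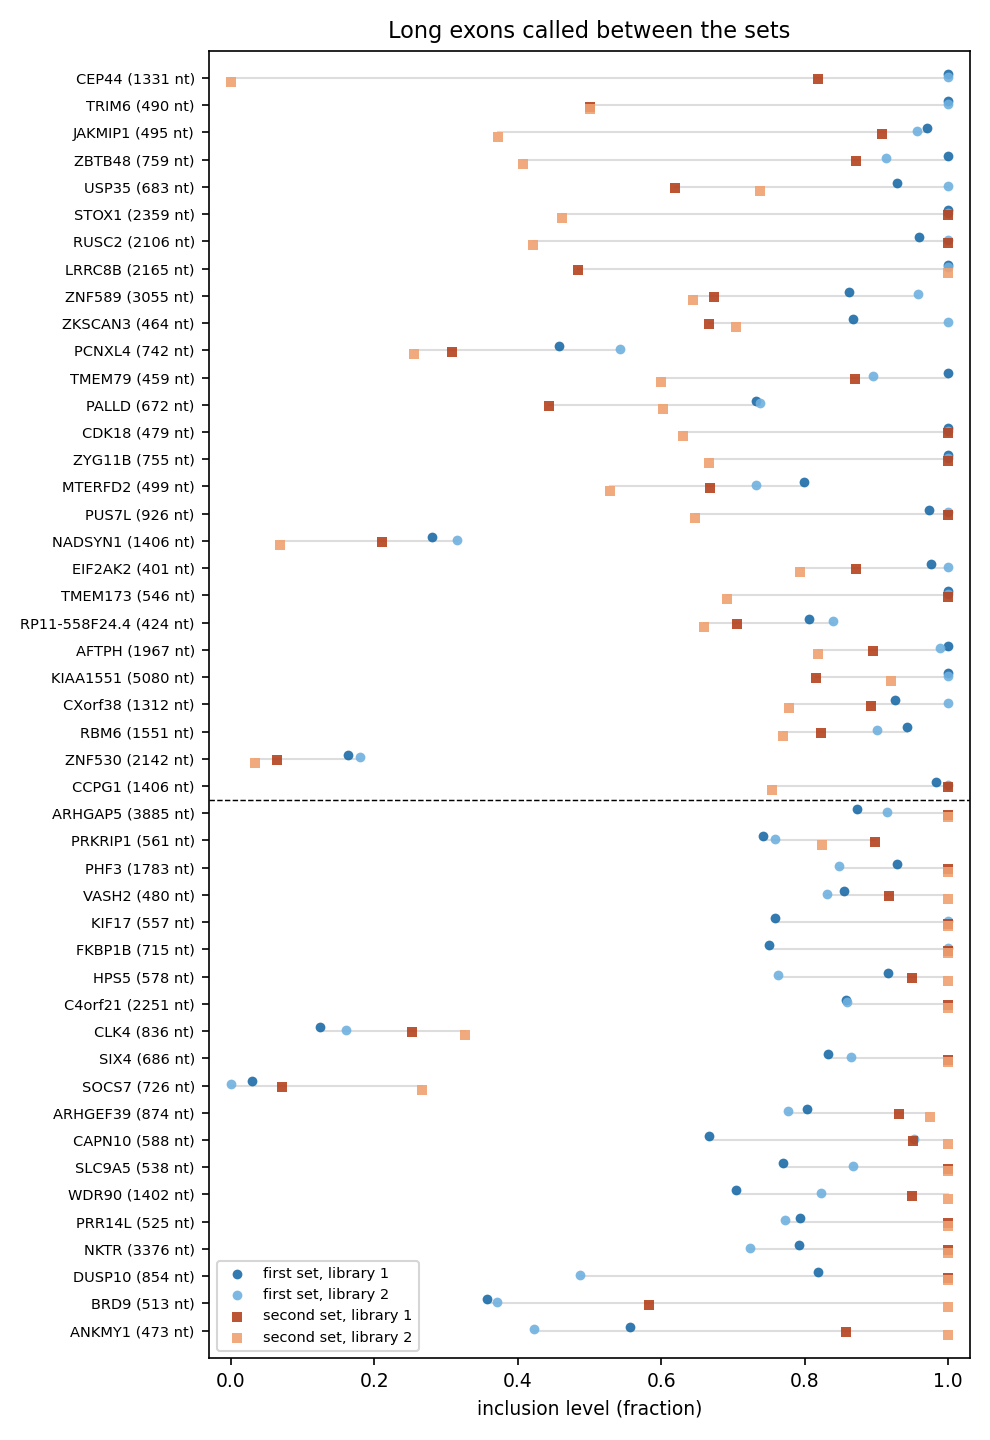
Inclusion level (fraction) in each library of the 47 long exons called from the authors' deposited table, ordered by difference, with exons higher in the first set above the dashed line and lower ones below it; blue circles are first-set libraries, red and orange squares second-set libraries, and grey lines span the values. In many exons above the line the lowest point is library 2 of the second set, as in 21 of the 27.

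By annotation, 12 of the called exons were coding (2.08% of that class), 22 partly coding (5.38%) and 11 non-coding (2.9%), and 2 were not matched. Over tested events of any length the shares called in these classes were 2.23%, 3.22% and 4.7%. By length, 10 were in the 400 to under 500 nt class (2.65%), 20 in the 500 to under 1000 nt class (3.04%) and 17 in the class of 1000 nt or more (4.71%), beside 3.11% of exons of 50 nt or less and, in the next classes, 2.3% up to 150 nt and 2.73% of those above that and under 400 nt. None of these differences between classes was tested. Of the 12 coding ones, only JAKMIP1 and PALLD have a length that is a multiple of 3, so skipping the other 10 shifts the reading frame. The skipping junction was annotated for 26 of the 47 (5.54% of such long exons, beside 3.71% of such tested events), and 13 contain an annotated intron (3.55%, beside 3.41%). Among the 357 matched long exons that share no splice site with a shorter annotated exon, where no annotated shorter form can give the same junction reads, 9 were called higher and 4 lower (3.64% in all, beside 2.77% of such tested events).

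Over all long exons together, most of which lie near full inclusion, the median difference was -0.00129, beside -0.0014 over all tested events, and the mean level over the 1392 long exons with reads in every library was 0.871 and 0.871 in the first set, against 0.865 and 0.871 in the second. The difference of these means was 0.0033, with p = 0.667 in a two-sided exact permutation test over the 4 libraries, where 0.333 is the smallest p that 2 against 2 allow.

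The 357 long exons with a mean level from 0.05 to 0.95 leaned towards the first set. Their median difference was 0.0176, beside 0.00428 over tested events in the same range, and 208 (58.3%, beside 52.2%) were higher in the first set. The mean level over the 354 with reads in every library was 0.735 and 0.733 in the first set, against 0.706 and 0.716 in the second. Shorter exons in that range had 0.649 and 0.649 against 0.645 and 0.646. For the long exons both libraries of the first set lay above both of the second, with p = 0.333 in the two-sided exact permutation test, the smallest possible. In the median and in the share of higher exons, this lean depended on library 1 of the second set. Without it the median difference was -0.000565 and 48% were higher, while without each of the others the median difference lay between 0.0106 and 0.0183. The mean level of library 2 of the second set, at 0.716, still lay below both first-set means. All 47 calls fell in this range of inclusion, where they make up 13.2% of long exons, beside 11% of tested events.

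The values on either side of the limits of the rule are given with no test. The 21 exons of 400 nt or less than 5 nt more had a median inclusion level of 0.978, a lower quartile of 0.919 and 1 call, and the 30 exons that fell short of 400 nt by at most 5 nt a median of 0.973, a lower quartile of 0.716 and 2 calls. The 17 long exons with a mean of 20 to under 22 reads had a median of 0.909, a lower quartile of 0.694 and 3 calls, and the 18 with 18 to under 20 reads a median of 0.892, a lower quartile of 0.389 and 4 calls. A further 186 exons of at least 400 nt had too few reads, and 20 of these passed the same FDR and difference in the authors' deposited table.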

How the data were processed

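The members and gene lists were chosen with earlier results of these data known. Poly(A) RNA from 4 samples was sequenced as pairs of 150 bp reads, per the labels' protocols. The submitters' processing notes name cutadapt, STAR and hg19 without versions. The deposited table has the rMATS layout for skipped exons counted on junction reads, per the file headers; the rMATS version, its settings and the annotation are not given in the sources used here. It names the SNORD89 treatment ahead of the untreated cells but does not say which set is which. For each event the authors deposited whole-number counts of inclusion and skipping reads per library, inclusion levels as a fraction from 0 to 1, form lengths, a p-value, its FDR, and a score from -1 to 1, the inclusion difference (first set minus second).

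Inclusion levels were recomputed from the counts, and differences came within 0.00137 of the deposited ones. The 54503 events with a mean of at least 20 reads were tested. Calls took a deposited FDR under 0.05 and a difference of at least 0.1. A quasi-binomial model per event (R 4.3.3), with dispersions moderated by squeezeVar of limma 3.58.1 along a depth trend and never under 1, and limma on log2 ratios of the counts (pseudocount 0.5, trend) were fitted to all tested events with Benjamini-Hochberg adjustment and tested on simulated data. The trend was estimated on events with at least 20 reads of each form. Wilson intervals (95%) on the read counts were carried through the length correction.

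Coding state, introns within exons and sequences came from GENCODE release 29 (GRCh38), matched to events by exon spacing within a gene; coordinates are those of the table, 1-based, and none was converted. Named exons are the 10 called with the largest non-overlapping difference in each direction, the 5 longest, the 5 deepest at intermediate inclusion, the 5 lowest with at least 50 reads, and, in each gene group, those called and the 3 deepest; gene groups are lists of symbols. A named exon among those lower in the first set is not reported here. Alternatives changed the read, length, difference and FDR thresholds, the length correction, the choice of table entry per exon and the libraries used.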

Additional observations from a re-analysis of the deposited data

How the results depend on the processing

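The 47 calls became 27 with a mean of at least 50 reads, 76 from 300 nt upwards, 85 at a difference of 0.05, 19 at a difference of 0.2 and 20 at an FDR under 0.01, and from 31 to 44 kept their difference with 1 library left out. First-set levels were higher in 57.4% of calls, a share that was 51.9% with at least 50 reads and 68.4% at a difference of 0.2, and from 41.9% to 62.8% with 1 library left out. The count of 0 past the quasi-binomial test was 0 to 13 with 1 library left out; the 13 arose without library 1 of the second set, where the lone library is assumed to vary like the others. The median difference was 0.0176 over exons with a mean level from 0.05 to 0.95, an alternative that keeps fewer exons, and -0.00412 to 0 over all long exons with 1 library left out. Over the exons from 0.05 to 0.95 it ran from -0.000565 to 0.0183 with 1 library left out, an alternative chosen after seeing the data. Apart from settings that change a threshold, the causes were not tested. Of the 81 exons recomputed singly, none of the 30 called ones changed sign under the alternatives run. Leaving out a library could not reverse most of these 30, because their sets do not overlap. The exceptions were STOX1, CDK18, ZYG11B and TMEM173, which went to 0 when library 2 of the second set was dropped. RUSC2, PUS7L and CCPG1, the 3 calls that reversed when it was dropped, were not among the 30. Of the 51 not called, 21 changed sign with 1 library left out, such as NIN, from 0.045 to -0.0207 without library 1 of the first set. In all, 32 of 486 recomputed differences moved by more than the spread between libraries, 25 of them without the length correction. No paired analysis was possible because the columns of the table carry no replicate numbers. At a called exon, in NKTR, library 2 of the second set held 2 reads.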

Other observations

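TUBGCP6, which encodes a subunit of the gamma-tubulin complex that nucleates microtubules, has 3 long exons that overlap and share their skipping reads; they were picked out after their values were seen. The 1683 nt coding exon, chr22:50658621-50660303, had inclusion levels of 0.971 and 0.959 in the first set, against 0.864 and 0.88 in the second. Skipping reads numbered 6 and 8 against 21 and 26, with 266 to 402 inclusion reads, and the skipping junction is not annotated. The difference of 0.094 lay just under the 0.1 used for a call, with an FDR in the authors' deposited table of 0.00033 and a quasi-binomial p of 0.0114. The 1624 nt and 600 nt exons, which end at other splice sites, differed by 0.075 and 0.098 and count the same skipping reads again. The sets were apart in all 3, and the difference of the longest lay between 0.086 and 0.102 with any 1 library left out.

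ZNF638, an RNA-binding zinc finger protein, holds 4 long exons, the most of any gene. The 1845 nt and 1519 nt exons share an end and lie at mean levels of 0.943 and 0.851, and the 1225 nt and 955 nt exons further downstream at 0.979 and 0.995. None differed by more than 0.019 between the sets.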
